A study of Homo sapiens with 60 samples.

Results

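The genes described here are 10 heat shock genes, measured as messenger RNA in HT29, a cell line from a human adenocarcinoma of the colon. They were taken by name from the 60675 genes of the deposited table. HSPA1A, HSPA1B, HSPA8, HSPH1, DNAJB1, HSP90AA1 and HSPB1 encode cytosolic proteins (7 genes), and HSPD1, HSPE1 and HSPA9 encode mitochondrial ones (3 genes). All 10 passed the filter on low counts that left 16484 genes for testing. Cells had been exposed for 24 h to vehicle or to hot-water extracts of herbs and herbal formulas. Of the single herbs, Citri Unshius Pericarpium is called citrus peel, Cimicifugae Rhizoma is called cimicifuga, Bupleuri Radix is called bupleurum, and Aconiti Lateralis Radix Preparata, a processed root, is called aconite. Yijung-tang, Banhasasim-tang and Bojungikgi-tang are mixtures. For each of the 7 extracts the high dose was 500, the medium dose 100 and the low dose 20 µg/mL. Vehicle was 0.1% DMSO per the sample labels and 2% per the text on the series' design. Vehicle and 6 extracts had 3 libraries per group, and Bojungikgi-tang had 1 library per dose. The labels do not say that replicates were separate cultures, so p-values reflect variation among the libraries that can be purely technical. All titles carry the same batch letter, but the sample numbers start with a prefix, and libraries with the same prefix are called a library set here. The labels do not say what the prefix stands for. Vehicle had a prefix of its own, so in every comparison with vehicle the extract and whatever the prefix marks cannot be told apart. The doses of an extract shared a prefix, as did citrus peel and cimicifuga, bupleurum and aconite, and Yijung-tang and Banhasasim-tang.

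Heat shock proteins are chaperones that hold, fold or disaggregate other proteins. In the cytosol, HSP70 proteins work with J-domain partners and nucleotide exchange factors and pass clients to HSP90, and the transcription factor HSF1 raises many of these genes under heat or proteotoxic stress. In the mitochondrial matrix, mtHSP70 (HSPA9) pulls in and folds imported proteins, and HSP60 (HSPD1) folds them in a chamber closed by HSP10 (HSPE1).

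Heat shock factors bind repeats of the letters GAA in alternating orientation, and these letters were looked for in the promoters of the 10 genes, all of which had an entry in the RefSeq promoter table (GRCh38.p14, from 250 bases before to 50 bases after the start). The stretches below are shown because they hold the repeats of the cytosolic HSP70 genes and of HSPB1, and the start region that HSPD1 and HSPE1 share. HSPA9 also holds a repeat, which spans its start site and is not printed. Capitals mark the matched motif, and each line reads 5′ to 3′ on the strand of the gene, or on the strand of HSPE1 for the shared region.
HSPA1A, chr6:31815429-31815452, plus strand: aaaccctgGAATATTCccgacctg
HSPA1B, chr6:31827625-31827648, plus strand: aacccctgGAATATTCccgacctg
HSPA8, chr11:123062346-123062374, minus strand: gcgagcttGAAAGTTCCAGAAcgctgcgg
HSPA8, chr11:123062171-123062199, minus strand: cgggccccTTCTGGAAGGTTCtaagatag
HSPB1, chr7:76302483-76302506, plus strand: taacgagaGAAGGTTCcagatgag
HSPD1 and HSPE1, chr2:197500345-197500374, plus strand: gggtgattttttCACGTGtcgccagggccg

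The stretches of HSPA1A and HSPA1B were the same at 23 of 24 bases, with the substitution A3C from HSPA1A to HSPA1B, counted from 1 at the left end. The pattern of 2 repeats (GAANNTTC or TTCNNGAA, read on both strands) stood in the windows of 5 of the 10 genes, against 13.7% of 27305 promoters of the same length. Those 5 were HSPA1A, HSPA1B, HSPA8, HSPB1 and HSPA9. The pattern of 3 repeats (GAA and its reverse complement TTC in alternation, 3 units in all with 2 bases between them), which contains the shorter one, stood in 1 of the 10, HSPA8, against 0.487% of all promoters. The windows of HSPH1, DNAJB1, HSP90AA1, HSPD1 and HSPE1 held neither pattern, which says only that these letters are not in these windows. HSPD1 and HSPE1 are read in opposite directions from starts with 104 bases between them. The letters CACGTG, the core of an E-box, stood in the windows of all 3 mitochondrial genes and of 0 of the 7 cytosolic ones, against 7.43% of all promoters. HSPD1 and HSPE1 share that match, and CACGTG was chosen for the search after their sequence had been seen. A match describes letters and is not a measured binding site.

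Library depth lay between 10.35 and 40.05 M counts (median 23.83 M). The labelled cell type was matched by its markers: KRT8 had a median of 6207 counts per M (CPM), LGALS4 of 565 and EPCAM of 521, and 7 of 10 epithelial markers were above 100 CPM. CDX2, CEACAM5 and CDX1 had medians of 5.44, 6.19 and 1.16 CPM. Of 14 leukocyte, endothelial and fibroblast markers, 6 had a median of 0 (PTPRC, CD3E, CDH5, KDR, COL1A2 and DCN), and 4 lay above CDX1, with CD14 at 3.26, PECAM1 at 1.78, ITGAM at 1.57 and COL1A1 at 1.31 CPM. Among the 57 replicated libraries, 3 stood above the rest in the median of 40 cytosolic ribosomal protein genes (log2 CPM less the vehicle mean). These were aconite high 2 at 0.53, Banhasasim-tang high 2 at 0.40 and vehicle 1 at 0.21, while the other 54 lay between -0.38 and -0.01. The same 3 libraries were high for several heat shock genes. Over 8104 genes, the deviation from the group mean correlated with transcript length at a Spearman's rho of -0.61 in aconite high 2. It was -0.76 in Banhasasim-tang high 2 and -0.70 in vehicle 1, with shorter transcripts higher, and -0.60 to 0.73 in the other 54. HSPB1 and HSPE1 have the shortest principal transcripts of the 10, at 909 and 950 bases. The part of transcript length in their values was not tested. RN7SL2, a 7SL RNA, followed neither the prefix nor the extract: it lay between 4.94 and 9.32 CPM in vehicle, between 3.45 and 9.90 CPM in replicates 1 and 2 of citrus peel and cimicifuga, and between 66.8 and 113 CPM in their replicate 3. The remaining 36 replicated extract libraries had 40.9 to 237 CPM of it. With a term for its level in the fit, 6 heat shock genes were called in the aconite high dose against vehicle, the 7 named below less DNAJB1. All vehicle libraries were low in RN7SL2 and all aconite high libraries were high, at 56.2 to 237 CPM. The term was thus estimated within citrus peel and cimicifuga alone, from replicate 3 against replicates 1 and 2. The share of all genes called in that fit is not given here. RSEM, the authors' counting tool, divides reads between similar genes, and HSPA1A and HSPA1B had divided counts in 100% of the 60 libraries, so their separate values are less certain than their sum. Counts of HSPE1 were divided in 96.7% of libraries, those of HSP90AA1 in 93.3% and those of HSPD1 in 81.7%, where related sequences such as the pseudogene HSPD1P1 had at most 93.7 counts in any library.

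Levels between genes are compared in CPM per kb of the principal transcript, as the mean of the vehicle libraries with its SD (n = 3). HSPA8, the constitutive HSP70 of the cytosol, was the most abundant of the 10 at 836 ± 24.0. HSPD1 followed at 469 ± 12.1, HSP90AA1, the inducible cytosolic HSP90, at 292 ± 28.3 and HSPE1 at 249 ± 12.1. HSPB1, a small heat shock protein, stood at 140 ± 24.9 CPM per kb. A lower cluster held HSPA1B at 83.2 ± 2.56, HSPA9 at 79.8 ± 0.308, HSPA1A at 72.8 ± 1.87 and HSPH1, an HSP110 exchange factor for HSP70, at 71.5 ± 2.50. Of the neighbours in this order, HSPA1A and HSPH1 did not differ beyond their spread, and HSPA1B and HSPA9 lay little more than 1 SD of HSPA1B apart. DNAJB1, a J-domain partner of cytosolic HSP70, was lowest of the 10 at 42.6 ± 0.886. Part of this order depends on the length used. Per kb of all exons of a gene, HSPB1 stood at 78.2, HSPA9 at 45.7 and HSPH1 at 44.2. On that scale HSPA1B stood at 83.2 and HSPA1A at 72.8 as before. HSPA8, HSPD1, HSP90AA1 and HSPE1 stayed the highest there, and DNAJB1 the lowest. The strictly inducible HSP70 gene HSPA6 was not tested, with a mean of 4.4 counts per library.

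Over the 19 groups the levels of the 10 genes stayed in narrow ranges. The ratio of the highest to the lowest group mean (CPM) was 1.17 for HSPA1A, 1.20 for HSPA1B, 1.28 for HSPA8 and 1.31 for HSP90AA1, and it was largest for HSPE1 at 1.47. The aconite high dose was the highest group for 9 of the 10 genes. HSPB1 was the exception: its highest group was vehicle at 128 CPM and its lowest was the aconite high dose at 94.1 CPM. The single highest of the 57 libraries was aconite high 2 for 7 of the 10 genes. Without aconite high 2, Banhasasim-tang high 2 and vehicle 1, the aconite high dose was the highest group for 6 genes, HSPA1A, HSPA1B, HSPA8, HSPH1, DNAJB1 and HSPA9. The ratio of HSPE1 was then 1.31, that of HSP90AA1 1.16 and that of HSPA8 1.16.

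**Figure D1:**
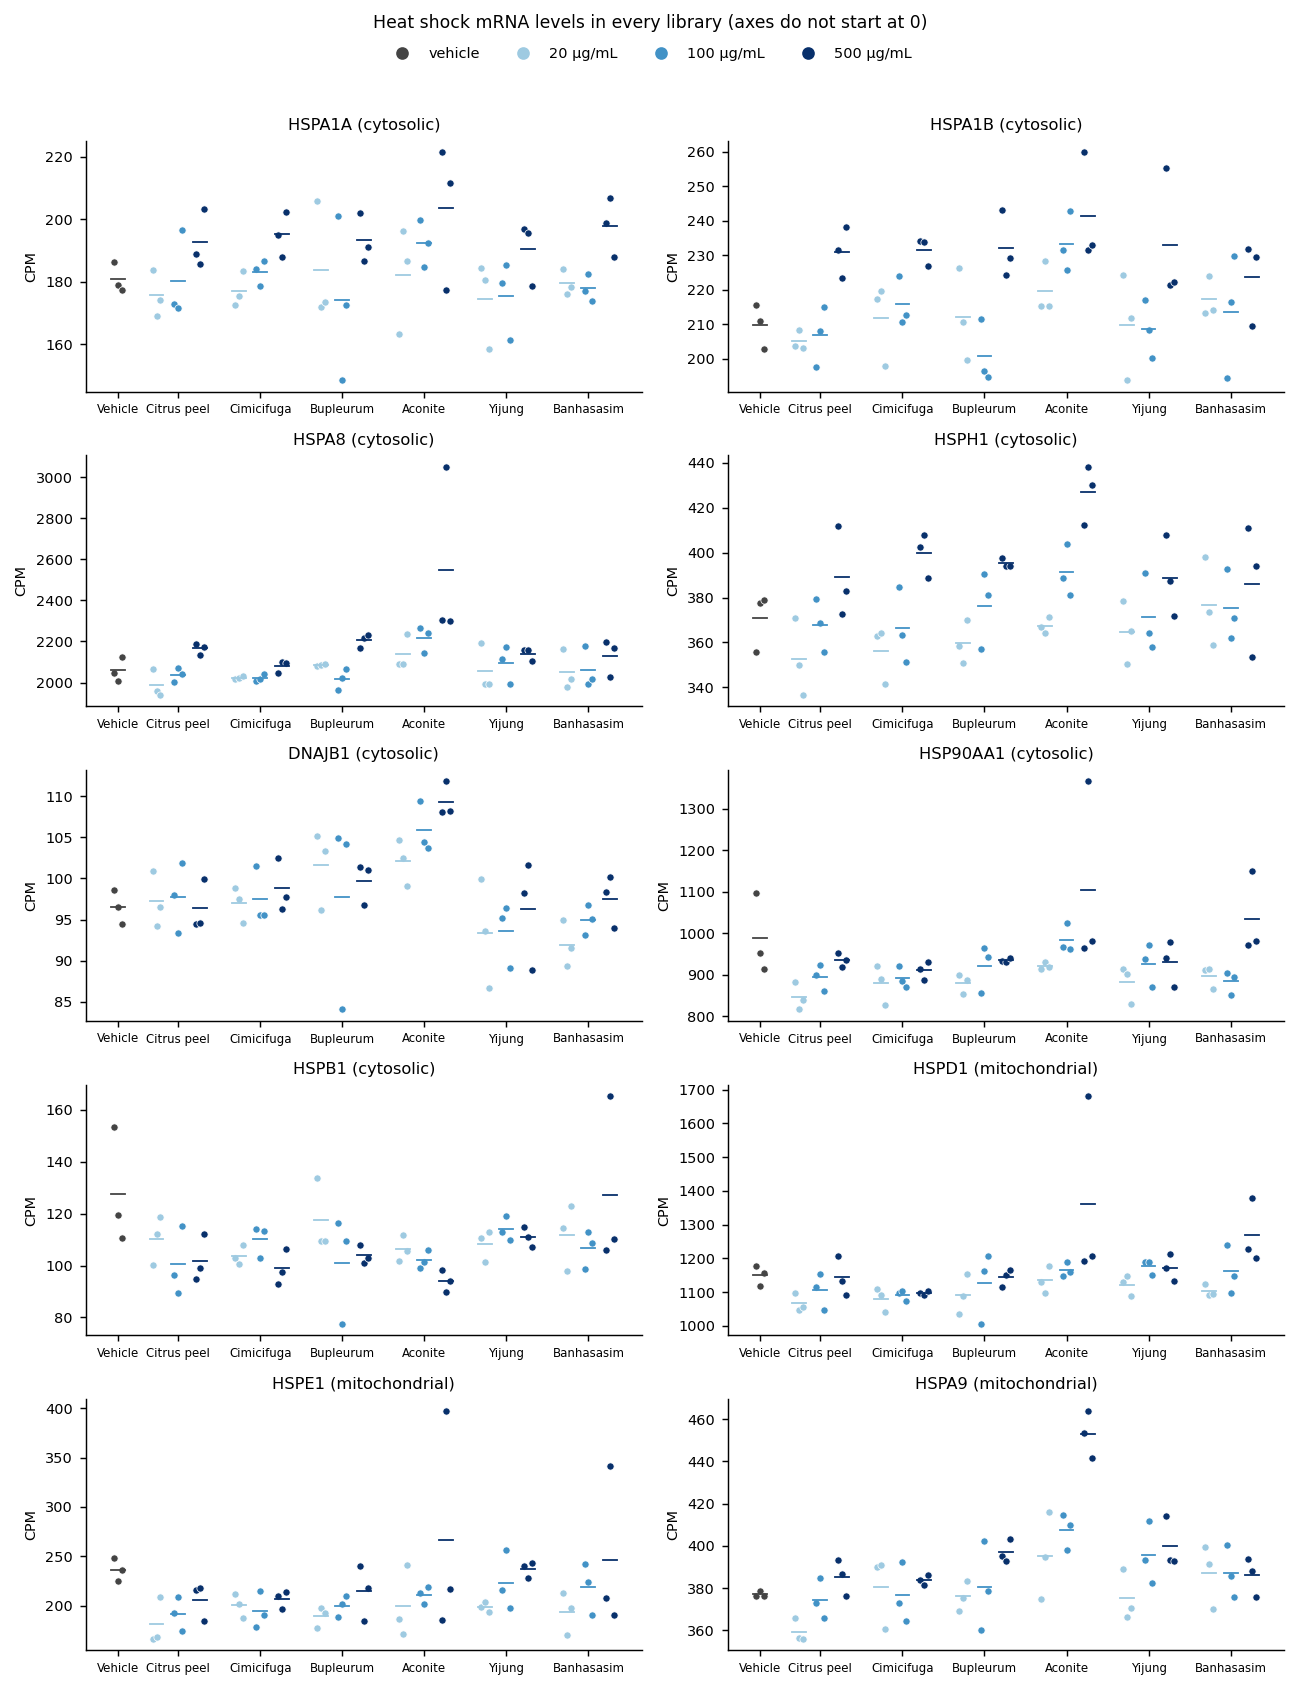
CPM of each of the 10 heat shock genes (y axis, not starting at 0) in every replicated library. Points are libraries, lines are group means of 3 libraries, and colours are vehicle and the 3 doses of each extract. The aconite high dose has the highest group mean for 9 of the 10 genes, and 1 of its libraries stands far above the others for HSPA8, HSP90AA1, HSPD1 and HSPE1.

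Doses were first compared over all 6 replicated extracts, as the mean of their 6 high-dose groups against the mean of their 6 low-dose groups. Each extract was thereby compared within its own library set, without vehicle. Of the 10 genes, 8 rose and 0 fell (adjusted p under 0.05 by the quasi-likelihood test of edgeR), against 13.1% of the 16484 genes called in either direction and 6.52% that rose. The rises were small, from 0.08 to 0.24 on the log2 scale. Both compartments were involved: 5 of 7 cytosolic and 3 of 3 mitochondrial genes rose. The comparison was added after the data had been seen. In bulk RNA, a change in the share of cells that express a gene and a change in RNA per cell cannot be told apart.

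Among the inducible HSP70 genes, HSPA1A ran from 158 to 206 CPM (median 177) in the 18 low-dose libraries and from 177 to 221 CPM (median 195) in the 18 high-dose libraries. It rose by 0.13 ± 0.03 (log2 fold change with its standard error, adjusted p = 0.00578). HSPA1B ran from 194 to 228 CPM (median 214) at low dose and from 210 to 260 CPM (median 231) at high dose. The libraries of the 2 doses overlapped for both genes, with most high-dose libraries above the low-dose median. HSPA1B rose by 0.13 ± 0.02 (adjusted p = 0.000305), and the sum of HSPA1A and HSPA1B rose by 0.13 as well.

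HSPH1 had the smallest adjusted p of the 10. Its 18 low-dose libraries ran from 337 to 398 CPM (median 364) and its 18 high-dose libraries from 354 to 438 CPM (median 396). It rose by 0.13 ± 0.02 (adjusted p = 1.77e-05), a ratio of 1.10. HSPA8 had medians of 2049 and 2169 CPM at low and high dose and rose by 0.10 ± 0.02 (adjusted p = 0.00356). HSP90AA1 had medians of 894 and 941 CPM and rose by 0.14 ± 0.03 (adjusted p = 0.00207). For HSPA8 and HSP90AA1 the highest high-dose library, at 3050 and 1366 CPM, was aconite high 2, far above the rest. Without that library the rise of HSPA8 was 0.08 (adjusted p = 0.00137).

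The mitochondrial genes rose with them. HSPD1 had medians of 1096 CPM in the 18 low-dose libraries and 1169 CPM in the 18 high-dose libraries, and it rose by 0.12 ± 0.03 (adjusted p = 0.00496). HSPE1, the co-chaperonin of HSPD1, ran from 166 to 241 CPM (median 196) at low dose and from 184 to 398 CPM (median 216) at high dose. Its rise of 0.24 ± 0.07 was the largest of the 10 with the widest interval, 0.10 to 0.38 (95%, adjusted p = 0.0154). HSPA9 had medians of 375 and 393 CPM and rose by 0.08 ± 0.02 (adjusted p = 0.00178).

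DNAJB1 and HSPB1 were not called. DNAJB1 had medians of 97.0 and 99.1 CPM at low and high dose, a difference of 0.04 with a 95% interval from -0.01 to 0.08 (adjusted p = 0.33). HSPB1 had medians of 109 and 105 CPM, a difference of -0.05 with a 95% interval from -0.15 to 0.05 (adjusted p = 0.525).

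Calls were found between the medium and the high dose and not between the low and the medium dose, although the difference between these steps was not tested. High against medium dose, HSPA1A, HSPA1B, HSPA8 and HSPH1 rose by 0.09 to 0.12 (4 of 10, against 2.77% of all genes that rose and 5.66% called). The 3 mitochondrial genes were not called there, with differences of 0.07 for HSPD1 (adjusted p = 0.15), 0.15 for HSPE1 (adjusted p = 0.194) and 0.05 for HSPA9 (adjusted p = 0.0948). Medium against low dose, 0 of 10 were called by edgeR, 1 of them (HSPH1) at an unadjusted p under 0.05, against 0.279% of all genes called. These comparisons share libraries with the one of high against low dose.

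Without the aconite extract, HSPA1A, HSPA1B, HSPH1 and HSP90AA1 rose in the mean over 5 extracts (4 of 10, against 1.91% of all genes that rose and 4.55% called). Their log2 fold changes were 0.12, 0.13, 0.11 and 0.11. Leaving out all libraries with replicate number 3 gave 0 of 10, and leaving out number 1 or number 2 gave 2. Leaving out 1 of the 30 libraries gave counts from 2 to 7 of 10. The count was 7 without Banhasasim-tang high 3. It was 2 without Banhasasim-tang high 2, bupleurum high 1, bupleurum low 2 or low 3, cimicifuga high 3, citrus peel high 3 or low 2, Yijung-tang high 1 or low 3. Without Banhasasim-tang high 2, 1.58% of all genes rose. The shares over all genes in the other fits are not given here, so their counts show no result about the 10 genes in particular. Of the mitochondrial genes, 0 of 3 were called by edgeR without aconite, all 3 at an unadjusted p under 0.05, with 0.09 for HSPD1 (adjusted p = 0.0993), 0.20 for HSPE1 (adjusted p = 0.112) and 0.06 for HSPA9 (adjusted p = 0.0918). Whether aconite differs from the mean of the other 5 extracts was not tested. In the mean over 6 extracts, 7 of 10 rose without the 3 libraries named above and a bupleurum medium library that also stood apart. HSPE1 was not called in that fit over 6 extracts (0.12, adjusted p = 0.0521). The share of all genes that rose in that fit is not given here. With the 3 libraries alone left out, 5 of 7 cytosolic and 2 of 3 mitochondrial genes rose, where 6.93% of all genes rose. The 40 ribosomal protein genes were also above 0 in 40 of 40 in the comparison of high with low dose over 6 extracts, with a median of 0.11, and 2 rose. Their part in the result was not tested. The median over all genes was 0.00.

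**Figure D2:**
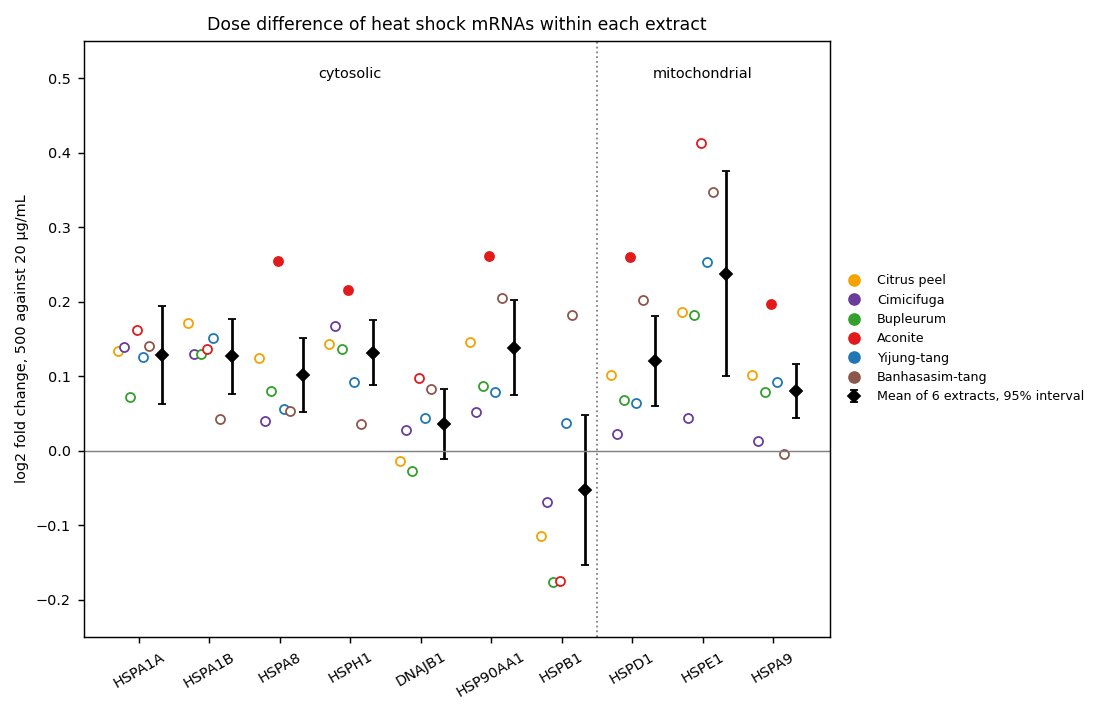
Log2 fold change of the high against the low dose (y axis) for each heat shock gene in each of 6 extracts (circles, filled where the adjusted p was under 0.05) and in the mean of the 6 (diamonds with 95% intervals). The diamonds lie above 0 with their intervals for 8 genes, not for DNAJB1 and HSPB1, and the 5 filled circles are all aconite.

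Extract by extract, the high dose lay above the low dose in all 6 extracts for 7 of the 10 genes, 5 cytosolic and 2 mitochondrial, against 7.24% of all genes tested. Those were HSPA1A, HSPA1B, HSPA8, HSPH1, HSP90AA1, HSPD1 and HSPE1. HSPA9 was above in 5 extracts, DNAJB1 in 4 and HSPB1 in 2. Over the 60 pairs of gene and extract, 53 had the high dose above the low dose (52 by group means of CPM without the 3 libraries), and in 26 all 3 high-dose libraries lay above all 3 low-dose libraries. Of all genes tested, 7.32% did so with citrus peel, 8.03% with cimicifuga, 7.23% with bupleurum, 9.29% with aconite, 8.13% with Yijung-tang and 7.19% with Banhasasim-tang. These separated pairs were spread over the genes, with 4 extracts each for HSPA8, HSPH1, HSP90AA1 and HSPA9, 3 each for HSPA1A and HSPA1B, 2 for HSPD1, 1 each for HSPE1 and DNAJB1 and 0 for HSPB1.

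HSPH1 shows the spread between extracts. With citrus peel its means were 352 ± 17.2 CPM at low and 389 ± 20.2 CPM at high dose (SD, n = 3). With cimicifuga the means were 356 ± 12.7 and 400 ± 9.80 CPM, and with bupleurum 360 ± 9.59 and 395 ± 2.14 CPM. With aconite they were 368 ± 3.47 and 427 ± 13.2 CPM. Of these, the difference with aconite passed the test. The means were nearest with Banhasasim-tang, 377 ± 19.8 and 386 ± 29.4 CPM, where the libraries overlapped. A full order of means from low over medium to high was seen in 5 of 6 extracts for HSPH1, HSP90AA1, HSPD1 and HSPE1, and in 0 for HSPB1. The median gene had that order in 1 extract.

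Taken singly, aconite was the extract with calls between doses. High against low dose, 5 of the 10 genes rose with aconite, against 10.8% of all genes called and 5.81% that rose. They were HSPA8 (0.25), HSPH1 (0.22), HSP90AA1 (0.26), HSPD1 (0.26) and HSPA9 (0.20). When the spread was estimated from the high and the low dose of aconite alone, 0 of the 10 were called, with adjusted p of 0.603, 0.388, 0.637, 0.675 and 0.493 for these 5, against 0.454% of 14967 genes that rose. In the other 5 extracts 0 of 50 tests passed by edgeR, 13 of them at an unadjusted p under 0.05, where 0.0667% of all genes were called with citrus peel, 0.904% with cimicifuga, 0.297% with bupleurum, 0.103% with Yijung-tang and 0.231% with Banhasasim-tang. The dose difference itself was compared between extracts of the same library set. By that interaction test 0 of 30 passed, 1 of them at an unadjusted p under 0.05, and the smallest adjusted p was 0.41. The interaction was called for 1.8% of all genes between aconite and bupleurum, 0.115% between cimicifuga and citrus peel and 0% between the 2 formulas.

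Against vehicle, 7 of the 10 genes were called at the aconite high dose, 6 up and 1 down, against 15.9% of all genes called, 8.58% that rose and 7.29% that fell. Up were 4 cytosolic genes, HSPA1B, HSPA8, HSPH1 and DNAJB1, and 2 mitochondrial genes, HSPD1 and HSPA9. HSPB1 fell. At the medium and low doses of aconite 0 of 10 were called, against 4.67% and 1.61% of all genes. Over all comparisons with vehicle other than the aconite high dose, 0 of 170 tests passed by edgeR, 23 of them at an unadjusted p under 0.05. Of all genes, those comparisons called 0.0243%, 0% and 0.00607% at high, medium and low dose of citrus peel, 1.33%, 0.0303% and 0% for cimicifuga, and 1.52%, 0.406% and 0.801% for bupleurum. The shares with Yijung-tang were 1.14%, 1.64% and 1.51%. Banhasasim-tang gave 1.21%, 3.11% and 2.92%. When the spread was estimated from the libraries of vehicle and the aconite high dose alone, 0 of the 10 genes were called, against 0.738% of 14902 genes that rose and 0.503% that fell. Without the filter on low counts 4 were called, HSPA8, HSPD1, HSPA9 and HSPB1, against 3.31% of 34606 genes that rose and 2.97% that fell, while HSPA1B (adjusted p = 0.101), HSPH1 (adjusted p = 0.0951) and DNAJB1 (adjusted p = 0.193) were not.

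HSPA9 separated most clearly. Its vehicle libraries stood at 376, 379 and 376 CPM and its aconite high libraries at 454, 464 and 442 CPM. All 3 aconite libraries lay above all 3 of vehicle and near each other, a separation found for 10.3% of all genes upward and 11.1% downward. HSPA9 rose by 0.26 ± 0.04 (adjusted p = 1.62e-05). At the low dose of aconite its libraries stood at 375, 395 and 416 CPM and at the medium dose at 415, 398 and 410 CPM. HSPA9 was also higher than with the high dose of bupleurum, of the same library set, by 0.19 ± 0.04 (adjusted p = 0.00287).

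HSPH1 stood at 356, 378 and 379 CPM in vehicle and at 412, 438 and 430 CPM with the aconite high dose, with no overlap. It rose by 0.20 ± 0.05 (adjusted p = 0.00549). The calls of HSPA9 and HSPH1 against vehicle and against the low dose held in each fit that left out 1 library of the groups compared. With the spread of the compared groups alone none of these 4 calls was left (adjusted p of 0.277 and 0.444 against vehicle and of 0.493 and 0.388 against the low dose, for HSPA9 and HSPH1). Without the filter on low counts HSPA9 was called against vehicle (adjusted p = 0.0127) and not against the low dose (adjusted p = 0.116), and HSPH1 in neither (adjusted p = 0.0951 and 0.0671).

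DNAJB1 stood at 98.5, 96.5 and 94.5 CPM in vehicle and at 108, 112 and 108 CPM with the aconite high dose. It rose by 0.18 ± 0.06 (adjusted p = 0.0258), and the call ended without aconite high 2 (adjusted p = 0.0774), as it did without vehicle 2 or vehicle 3. HSPA1B stood at 216, 211 and 203 CPM in vehicle and at 260, 231 and 233 CPM with aconite. It rose by 0.20 ± 0.06 (adjusted p = 0.0177), a call that ended without vehicle 2, vehicle 3 or aconite high 1 (adjusted p up to 0.112). HSPA1A had a difference of 0.17 ± 0.08 and was not called (adjusted p = 0.148), and the sum of both genes rose by 0.19 (adjusted p = 0.0258).

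Aconite high 2 decided several values. HSPA8 stood at 2044, 2008 and 2124 CPM in vehicle and at 2302, 3050 and 2298 CPM with the aconite high dose. HSPD1 stood at 1179, 1120 and 1156 CPM in vehicle and at 1194, 1681 and 1207 CPM with aconite. HSP90AA1 stood at 1096, 953 and 914 CPM in vehicle and at 965, 1366 and 981 CPM with aconite. In each case the 2 other aconite libraries lay near each other and close to or inside the vehicle range, except for HSPA8, where they lay above it. HSPE1 showed the widest spread, with 248, 225 and 236 CPM in vehicle and 185, 398 and 217 CPM with aconite, so that 2 aconite libraries lay below all of vehicle and 1 far above.

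With all libraries HSPA8 rose by 0.31 ± 0.06 (adjusted p = 0.000202) and HSPD1 by 0.24 ± 0.07 (adjusted p = 0.0187) against vehicle. HSP90AA1 (0.16, adjusted p = 0.165) and HSPE1 (0.17, adjusted p = 0.556) were not called. Without aconite high 2, HSPA8 rose by 0.15 (adjusted p = 0.0166), whereas HSPD1 was at 0.05 (adjusted p = 0.579, a call that also ended without vehicle 2 or vehicle 3), HSP90AA1 at -0.03 and HSPE1 at -0.24. HSPA1A, which was lower in that library than in the other 2 (177 against 221 and 212 CPM), was called without it at 0.25 (adjusted p = 0.0277). Against vehicle 5 genes then rose, HSPA1A, HSPA1B, HSPA8, HSPH1 and HSPA9, and HSPB1 fell. In that fit 8.42% of all genes rose and 8.79% fell.

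The same library decided the comparison with the low dose. Without it HSPA8 stood at 0.10 (adjusted p = 0.201), HSP90AA1 at 0.08 (adjusted p = 0.592) and HSPD1 at 0.08 (adjusted p = 0.54), while HSPH1 (0.19, adjusted p = 0.0247) and HSPA9 (0.18, adjusted p = 0.0103) rose. The call of HSP90AA1 also ended without any 1 of the low-dose libraries, and that of HSPD1 without aconite low 1 or low 2. High dose of aconite against high dose of bupleurum, HSPA8, HSP90AA1, HSPD1 and HSPA9 rose, 4 of 10 against 9.86% of all genes called and 5.91% that rose. Without aconite high 2 the rise of HSPA9 passed (0.17, adjusted p = 0.02), and those of HSPA8 (0.06, adjusted p = 0.659), HSP90AA1 (0.05, adjusted p = 0.803) and HSPD1 (0.06, adjusted p = 0.707) did not. Those 3 calls also ended without bupleurum high 1, that of HSP90AA1 also without bupleurum high 2 or 3, and that of HSPD1 also without bupleurum high 2. With the spread of these 2 groups alone 0 of the 4 were called, and without the filter on low counts HSPA8 (adjusted p = 0.0935) and HSPA9 (adjusted p = 0.168) were not. These comparisons and the one with vehicle share the 3 libraries of the aconite high dose. Between the other extracts of a shared set, 0 of 20 tests passed by edgeR, 0 of them at an unadjusted p under 0.05, against 0.886% of all genes called between cimicifuga and citrus peel and 0.346% between Banhasasim-tang and Yijung-tang. The ribosomal protein genes stood at a median of 0.53 above vehicle in that library and at -0.23 and -0.13 in the 2 others. Their part in these results was not tested.

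**Figure D3:**
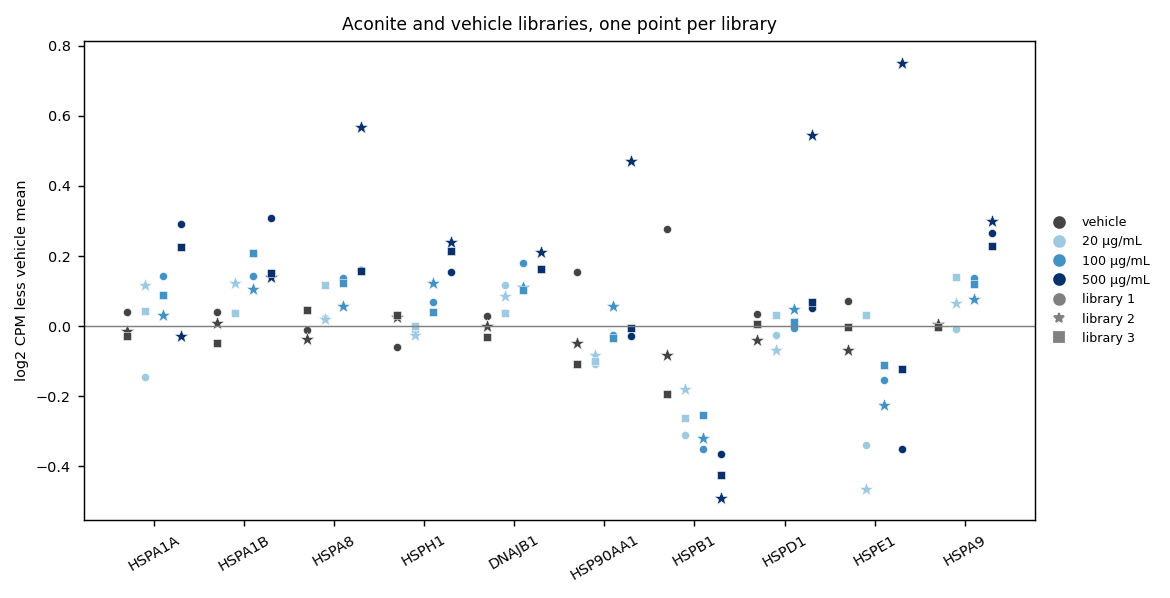
Log2 CPM less the vehicle mean (y axis) of each heat shock gene in the 3 vehicle libraries and the 9 aconite libraries, with the symbol giving the library number. Library 2 of the high dose (dark star) lies far above libraries 1 and 3 for HSPA8, HSP90AA1, HSPD1 and HSPE1, while the 3 high-dose libraries lie together for HSPH1, DNAJB1 and HSPA9.

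HSPB1 moved the other way. It stood at 153, 119 and 110 CPM in vehicle and at 98.3, 90.0 and 94.2 CPM with the aconite high dose, with no overlap. It fell by 0.44 ± 0.12 on the log2 scale (adjusted p = 0.00995). Vehicle 1 was the highest vehicle library, and without it HSPB1 stood at -0.28 and was not called (adjusted p = 0.157). HSPB1 lay below vehicle in 18 of 18 groups with a median log2 fold change of -0.26, HSPE1 lay above it in 3 and HSP90AA1 in 2. These comparisons all share the 3 vehicle libraries, among which vehicle 1 was the highest for HSPB1, HSP90AA1 and HSPE1. Without vehicle 1, group means of CPM lay above the vehicle mean in 2 groups for HSPB1, 3 for HSPE1 and 5 for HSP90AA1, whose vehicle mean was then 933 in place of 987 CPM. The highest library of HSPB1 was Banhasasim-tang high 2 at 165 CPM, with 106 and 110 CPM in the 2 others of that group.

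The mitochondrial genes were set against the cytosolic ones in each library, as the mean of log2 CPM less the vehicle mean over the 3 and over the 7 genes. These means are a description with no test. In the aconite high dose the mitochondrial mean was 0.19 ± 0.30 and the cytosolic mean 0.11 ± 0.05 (SD, n = 3). Their difference, mitochondrial less cytosolic, was 0.08 ± 0.25, with -0.11, 0.37 and -0.01 in the 3 libraries. Without aconite high 2 it was -0.06, from a mitochondrial mean of 0.02 and a cytosolic mean of 0.08.

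Over the 18 extract groups the difference ran from -0.11 to 0.08, with the mitochondrial mean above the cytosolic one in 5 groups. Of those 5, the high doses of aconite and Banhasasim-tang were above through library 2 alone. Without these 2 libraries the range was -0.11 to 0.05 and 3 groups were above, and Banhasasim-tang stood at -0.07. With vehicle 1 left out as well it was -0.12 to 0.03, again with 3 groups above. Of the 54 libraries, 17 had the mitochondrial mean above. The library aconite high 2 was the 1 library with a difference over 0.17 (the lowest stood at -0.25). HSPA9 parted from HSPD1 and HSPE1 there: it was as high in the other 2 aconite libraries as in library 2, whereas HSPD1 and HSPE1 were high in library 2 alone.

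**Figure D4:**
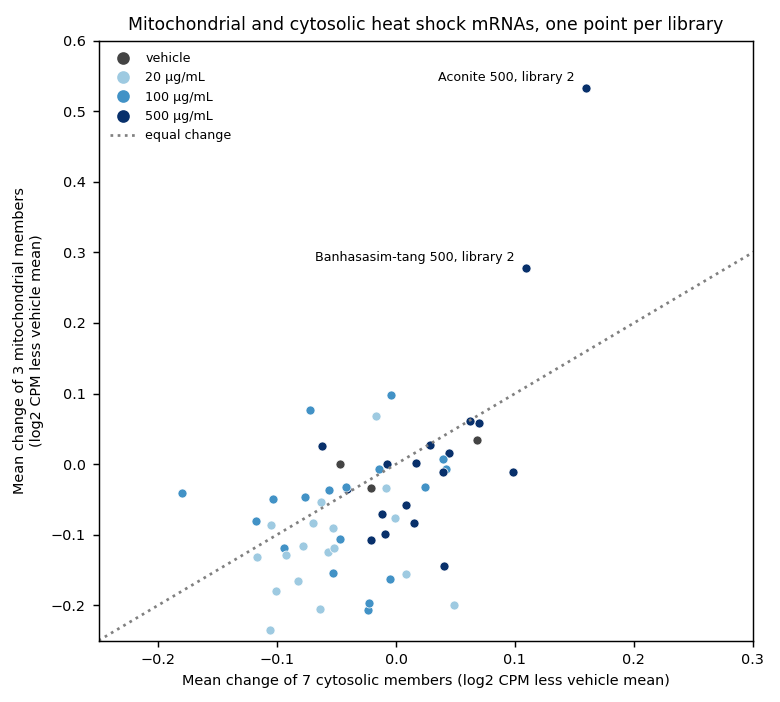
Mean change of the 3 mitochondrial genes (y axis) against that of the 7 cytosolic genes (x axis), both as log2 CPM less the vehicle mean, with 1 point per library and the dotted line at equal change. The extract libraries lie between -0.25 and 0.17 of the line, except aconite high 2, which lies 0.37 above it.

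The means of log2 CPM over the 19 groups were also correlated between the 10 genes, as a description over groups that share vehicle, library sets and depth. The median r was 0.61 over the 21 pairs of cytosolic genes (from -0.44 to 0.92), 0.81 over the 3 mitochondrial pairs and 0.64 over the 21 mixed pairs. Without the 4 libraries that stood apart the medians were 0.65, 0.56 and 0.47. Among 8281 other genes, those most like HSPH1 over the 19 groups were SKA3, a kinetochore gene (r = 0.91), GCLC, which makes glutathione (r = 0.90), and ME1, the cytosolic malic enzyme (r = 0.90). Those most like HSPD1 were CCT6A, a subunit of the TRiC chaperonin (r = 0.97), NIFK (r = 0.96) and DCAF13 (r = 0.96), which act in ribosome biogenesis.

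Other chaperone genes were described from lists that hold none of the 10. In the aconite high dose against vehicle, of 27 other cytosolic chaperones and cochaperones 7 rose and 1 fell, where 8.58% of all genes rose and 7.29% fell, with a median log2 fold change of 0.15 against 0.00 over all genes tested. Leaving out aconite high 2, 3 rose and 1 fell with a median of 0.01, where 8.42% of all genes rose and 8.79% fell. Without vehicle 1, 3 rose and 0 fell, where 6.25% of all genes rose and 5.54% fell. DNAJA4, a J-domain protein (0.31, adjusted p = 0.00357), HSPA14, an HSP70 at the ribosome (0.28, adjusted p = 0.00432), and FKBP4, an HSP90 cochaperone (0.20, adjusted p = 0.0111), rose. BAG1, a nucleotide exchange factor of HSP70, fell by 0.32 (adjusted p = 0.00248). The call of HSPA14 ended without aconite high 2 (0.08, adjusted p = 0.25), and those of DNAJA4 (0.21, adjusted p = 0.0677) and BAG1 (-0.23, adjusted p = 0.0569) without vehicle 1. Of the 8 subunits of the TRiC chaperonin, which folds actin and tubulin, 4 rose and 0 fell, with a median of 0.22. Of these, 0 were called without aconite high 2, and the median was 0.03. With the spread of vehicle and the aconite high dose alone, 0 genes of these and of the next 3 lists were called.

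Of 18 other mitochondrial chaperones and proteases 7 rose and 2 fell with the aconite high dose, with a median of 0.14. When aconite high 2 was left out, 5 rose and 2 fell with a median of -0.01, where 8.42% of all genes rose and 8.79% fell. Without vehicle 1, 5 rose and 1 fell, where 6.25% of all genes rose and 5.54% fell. Several are partners of HSPA9. GRPEL2, a nucleotide exchange factor of HSPA9, rose by 0.49 ± 0.07 (adjusted p = 1.58e-07). DNAJA3, a J-domain partner, rose by 0.25 ± 0.05 (adjusted p = 0.000174) and TIMM44, which ties HSPA9 to the import channel, by 0.29 ± 0.07 (adjusted p = 0.00107). SPG7, a subunit of an inner membrane protease, fell by 0.36 (adjusted p = 5.9e-06). These 4 were also called without aconite high 2, TIMM44 at 0.20 (adjusted p = 0.0277), and without vehicle 1. Of 15 chaperones of the endoplasmic reticulum 3 rose and 1 fell, among them HSPA5, the HSP70 of that compartment, which rose by 0.23 (adjusted p = 0.00138). HSPA5 was not called without aconite high 2 (0.13, adjusted p = 0.0582), where 2 of the 15 rose and 2 fell. Without vehicle 1, 1 rose and 0 fell. Of 5 heat shock transcription factors and regulators 0 rose and 1 fell, ATF5, a factor of the mitochondrial stress response, by 0.37 (adjusted p = 0.0287), and HSF1 stood at -0.03 (adjusted p = 0.88). ATF5 was not called without aconite high 2 (-0.19, adjusted p = 0.248) or without vehicle 1 (-0.30, adjusted p = 0.139).

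In the comparison of high with low dose over 6 extracts, 13 of 27 other cytosolic chaperones rose and 0 fell, where 6.52% of all genes rose, with a median of 0.09. FKBP4 rose by 0.17 (adjusted p = 8.79e-07) and CHORDC1, an HSP90 partner, by 0.12 (adjusted p = 0.000751). AHSA1, which stimulates HSP90, rose by 0.15 (adjusted p = 0.00235). Of 18 mitochondrial ones 8 rose and 0 fell, with TIMM44 at 0.16 (adjusted p = 3.25e-05), GRPEL1 at 0.19 (adjusted p = 0.00136) and GRPEL2 at 0.11 (adjusted p = 0.00285). Of the 8 TRiC subunits 4 rose, and of 15 chaperones of the endoplasmic reticulum 9 rose, with HSPA5 at 0.15 (adjusted p = 9.51e-07). Without the aconite extract, 6 of 27 cytosolic, 2 of 18 mitochondrial, 0 of 8 TRiC and 6 of 15 endoplasmic reticulum genes rose, where 1.91% of all genes did. Over 6 extracts without aconite high 2, the counts were 10, 8, 3 and 9, where 5.91% of all genes rose. Without Banhasasim-tang high 2 they were 11, 7, 2 and 10, where 5.19% of all genes rose. With the spread of the 12 groups alone they were 8, 7, 1 and 9, where 5.35% of all genes rose. Of the 5 factors and regulators 0 were called by edgeR, among them HSF1 at 0.03 (adjusted p = 0.586).

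Bojungikgi-tang had 1 library per dose and no replicate check. By the log2 ratio of CPM + 1 to the vehicle mean, 0 of the 10 genes passed 0.5 in either direction at any dose, where 3.19%, 3.72% and 1.95% of all genes did at high, medium and low dose. HSPA1B stood at 250, 239 and 248 CPM at high, medium and low dose, above the vehicle libraries, which ran from 203 to 217 CPM in this scaling. HSPH1 stood at 439, 391 and 383 CPM, with vehicle between 358 and 379 CPM. HSPB1 stood at 105, 122 and 143 CPM, with vehicle between 110 and 154 CPM. The levels of HSPA1B and HSPH1 thus lay above all vehicle libraries at each dose, with log2 ratios of at most 0.25 and 0.24. DNAJB1 did so too, at 104, 99.1 and 105 CPM, with vehicle between 94.4 and 99.0 CPM. HSPE1 lay below all vehicle libraries at each dose, at 223, 202 and 215 CPM, with vehicle between 225 and 249 CPM. The share of all genes with such a separation is not given here, so these levels show no result about the 10 genes in particular.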

How the data were processed

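Messenger RNA was measured by RNA sequencing in 60 libraries of HT29. The deposited table holds estimated counts per gene (RSEM expected counts, with no normalization that the values show), made by the authors. RSEM 1.3.3 and STAR 2.7.3a are named in the submitters' processing notes, besides Trim Galore 0.6.5, FastQC 0.11.9 and the build GRCh38 (hg38). The annotation version is not given in the sources used here. Of 270 columns, 60 matched the samples by name and 210 were not used. The 8.68% of values that were not whole were rounded.

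Groups came from the sample labels. Genes were filtered with filterByExpr, scaled with TMM and tested with edgeR 4.0.16 (quasi-likelihood, R 4.3.3) in 1 fit of group means over 57 libraries, so that 19 groups shared the estimate of spread (biological coefficient of variation 8.04%). P-values were adjusted by Benjamini-Hochberg over all 16484 genes within each comparison. The standard error of a log2 fold change is its size over the square root of F. Transcript lengths came from GENCODE release 29 on GRCh38 and promoters from RefSeq. The test was also tried on simulated data, drawn from the means, spread and library sizes of the real fit.

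All 10 genes were named. From each chaperone list up to 4 genes with the smallest adjusted p could be named, and for HSPH1 and HSPD1 the 3 genes most alike in group means (mean log2 CPM of at least 4). The genes and lists were chosen with earlier results of these data known. Alternatives were DESeq2 1.42.0, limma 3.58.1 (voom with sample weights), RLE scaling, no filter, the compared groups alone, a replicate block, a term for the level of RN7SL2 (which separated 15 libraries from 42), summed HSPA1A and HSPA1B, and fits without single libraries, replicate numbers or 4 libraries that stood apart. Fits of the chaperone lists without single libraries were added after the data had been seen. Those 4 were vehicle 1, aconite high 2, Banhasasim-tang high 2 and bupleurum medium 2.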

Additional observations from a re-analysis of the deposited data

How the results depend on the processing

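Counts of heat shock genes called are sums over the comparisons of a kind, out of 30 against vehicle per extract, 60 between doses and 30 between extract pairs, with edgeR on all libraries giving 7 for aconite against vehicle, 0 for each other extract, 5 between doses, 4 between pairs and 8 of 10 over 6 extracts. With limma voom and sample weights the counts against vehicle were 4 for citrus peel, 3 for cimicifuga, 5 for bupleurum, 13 for aconite, 2 for Yijung-tang and 5 for Banhasasim-tang, with 10 between doses and 1 between pairs. Over all genes that fit called 5993 in the aconite high dose against vehicle, where edgeR called 2615. Counts in this section without a share over all genes beside them do not show a result about the 10 genes in particular. Without a filter on low counts the counts against vehicle were 4 for citrus peel, 2 for cimicifuga, 3 for bupleurum, 1 for Yijung-tang and 2 for Banhasasim-tang, all of them falls of HSPB1 or HSPE1. In that fit 8 calls were lost: HSPA1B, HSPH1 and DNAJB1 in the aconite high dose against vehicle, HSPH1 and HSPA9 against the low dose, HSPA8 and HSPA9 against bupleurum, and HSPA9 over 6 extracts (adjusted p = 0.109). Fitted on the compared groups alone they were 0 for aconite against vehicle, 1 between doses (HSPE1 with Yijung-tang, so that none of the 5 with aconite was left) and 0 between pairs, with 8 over 6 extracts, and 185 of all genes were called in the aconite high dose against vehicle. Without the 4 libraries that stood apart, 1 was called between pairs. The cause was not tested. Leaving out single libraries or replicate numbers gave 3 to 8 for aconite against vehicle, 2 to 8 between doses, 0 to 5 between pairs and 6 to 8 over 6 extracts (8 in each fit without 1 library), with 0 for each other extract against vehicle. Without HSPA1A and HSPA1B, mitochondrial less cytosolic was -0.017 for the cimicifuga high dose and -0.0038 for the bupleurum high dose, from -0.07 and -0.04. The difference moved up in all 18 groups, by 0.007 to 0.054, with citrus peel high at -0.0099 from -0.057, aconite medium at -0.012 from -0.046, Yijung-tang high at 0.069 from 0.029 and Banhasasim-tang high at 0.029 from 0.0067, and 5 groups stood above 0 as before. Replicate numbers were not treated as pairs in the reported fit, since in no comparison did the deviations of all same-numbered libraries correlate above 0.1. In citrus peel and cimicifuga, all libraries of replicate 3 were high in RN7SL2 and those of replicates 1 and 2 low. Whether libraries of the same number shared a step was not tested. With the replicate number as a block the counts were 7 for aconite against vehicle, 0 for each other extract, 5 between doses, 4 between pairs and 8 over 6 extracts. With the block within the library set they were 6 between doses and 4 between pairs. No value reversed. The 24 calls had 687 values under an alternative, of which 590 kept direction and side of the threshold and 97 lost the call. The 256 tests without a call had 4725 such values, of which 72 passed, 33 of them with voom and 17 without the filter. Each of the 10 genes had at least 959 counts in every library, so that the depth was not low for any of them, and precision rests on 3 libraries per group.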
